A study of Mus musculus with 6 samples.

Results

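The accessible chromatin around 7 matrix metalloproteinase genes (Mmp2, Mmp7, Mmp9, Mmp11, Mmp14, Mmp15 and Mmp19) and 2 genes of their tissue inhibitors (Timp2 and Timp3) was compared between immunotherapy-resistant and immunotherapy-sensitive mouse organoids of non-small cell lung cancer. Members were all peaks of any annotation class that the authors' deposited table assigns to 1 of these 9 gene symbols, which gave 59 peaks of 214414. Peaks come from ATAC-seq, which uses a transposase to insert sequencing adapters where DNA is not packed by nucleosomes, with 3 libraries titled as sensitive and 3 titled as resistant. Organoids are cultures in which tumour cells grow as small multicellular bodies in a gel. The labels give NSCLC as the cell type and name no strain, genotype, treatment or age for either group, and nothing in them tells if replicates are separate cultures, so the p-values cover the variation among these 6 libraries, which may be technical. Other differences between the cultures cannot be told apart from resistance. The columns of values per library carry names that match no sample title and were not used here, so each peak is described by the mean normalized count over all 6 libraries, the log2 fold change with its standard error (SE) and the adjusted p of the DESeq2 comparison, all from the authors' deposited table. The direction, positive where resistant organoids are higher, is known from the table's title and nothing else. In bulk chromatin, a change in the share of cells with an open site cannot be told apart from a change in how open the site is in each cell.

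Matrix metalloproteinases are zinc-dependent endopeptidases that cleave collagens, laminins, other matrix proteins and many cell surface proteins. Most are secreted as inactive proenzymes whose prodomain has to be removed, and the membrane-type enzymes stay anchored at the cell surface. The tissue inhibitors of metalloproteinases (TIMPs) bind the active site of the mature enzymes, and TIMP2 also takes part with the membrane-type enzyme MMP14 in the activation of MMP2. In carcinomas much of the MMP2 and MMP11 is known to be made by stromal cells, whereas MMP7 is typically made by the epithelial tumour cells.

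Promoter windows from RefSeq (build GRCm38.p6, 250 bases before to 50 bases after the start) were found for 6 of the 9 genes, Mmp7 with 2 starts. Mmp2, Mmp9 and Mmp19 had no entry. The windows of Mmp15, Mmp14, Mmp11 and Timp2 lay inside a deposited peak. Neither window of Mmp7 did, the nearest deposited peak of that gene being 1510 bp away, nor did the window of Timp3, which lay 899 bp from the nearest peak. The windows of the membrane-type pair Mmp15 and Mmp14 are shown because the Mmp15 promoter peak changed and the Mmp14 one did not pass the test. That of Timp2 is shown as the inhibitor gene with the strongest peak, although this window lies in the weaker peak over the start. The upstream window of Mmp7 is shown as a start with no peak over it. Letters are in the direction of transcription, and capitals mark the motif matches described after them.
Mmp15, chr8:95352046-95352345, plus strand: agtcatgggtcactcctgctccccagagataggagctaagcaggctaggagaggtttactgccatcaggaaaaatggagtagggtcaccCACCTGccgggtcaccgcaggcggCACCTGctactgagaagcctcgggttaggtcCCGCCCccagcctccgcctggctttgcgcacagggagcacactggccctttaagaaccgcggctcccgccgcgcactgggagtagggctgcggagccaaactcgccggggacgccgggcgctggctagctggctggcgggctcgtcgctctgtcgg
Mmp14, chr14:54431348-54431647, plus strand: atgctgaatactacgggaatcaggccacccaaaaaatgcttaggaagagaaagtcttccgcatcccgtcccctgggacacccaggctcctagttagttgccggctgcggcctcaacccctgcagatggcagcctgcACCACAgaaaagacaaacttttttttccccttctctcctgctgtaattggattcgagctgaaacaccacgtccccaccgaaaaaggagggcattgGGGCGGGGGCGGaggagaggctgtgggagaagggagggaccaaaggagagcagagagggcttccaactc
Timp2, chr11:118355362-118355661, minus strand: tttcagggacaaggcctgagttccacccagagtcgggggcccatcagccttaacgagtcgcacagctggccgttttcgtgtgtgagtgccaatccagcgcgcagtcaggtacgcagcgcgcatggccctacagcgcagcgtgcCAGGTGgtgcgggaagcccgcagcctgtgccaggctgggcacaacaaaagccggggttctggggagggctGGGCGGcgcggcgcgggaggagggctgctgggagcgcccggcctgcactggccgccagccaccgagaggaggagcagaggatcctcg
Mmp7, chr9:7691840-7692139, plus strand: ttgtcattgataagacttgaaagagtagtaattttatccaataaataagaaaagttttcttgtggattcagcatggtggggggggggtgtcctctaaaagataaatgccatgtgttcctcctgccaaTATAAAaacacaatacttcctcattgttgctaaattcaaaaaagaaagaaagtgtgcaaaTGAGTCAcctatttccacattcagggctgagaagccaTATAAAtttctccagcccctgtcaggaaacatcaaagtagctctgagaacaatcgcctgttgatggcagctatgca

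Both strands of the windows were searched for the AP-1 motif TGANTCA, for CCGGAA of the ETS family, for GGAATG of the TEAD family, for GGGCGG of the SP and KLF families, for the TATA box as TATAAA, for TGTGGT of the RUNX family and for CACCTG, the E-box bound by SNAIL and ZEB factors. No 2 matches overlapped. Counting from the start as 1, with negative positions before it, the Mmp15 window held CACCTG at -161 and -137 and GGGCGG, on the other strand, at -106. The Mmp14 window held GGGCGG at -19 and -13 and TGTGGT, on the other strand, at -114. The Timp2 window held GGGCGG at -37 and CACCTG, on the other strand, at -107. The Mmp7 window held TGANTCA at -63 and TATAAA at -123 and -26, and no GGGCGG. That motif was found in 35.7% of all 32851 windows and CACCTG in 20.2%. TGTGGT was found in 16.8%, TATAAA in 13.6% and TGANTCA in 7.81% of them. CCGGAA (14.9% of all windows) and GGAATG (14.7%) were in none of the 7 windows of these genes. The GC content was 66.0% for Mmp15, 56.0% for Mmp14 and 68.7% for Timp2, with 22, 10 and 25 CpG dinucleotides, against 39.0% and 1 CpG for the upstream Mmp7 window. The median of all windows was 52.7% with 7 CpG. These matches describe letters and do not show that a factor binds there.

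Of the 59 peaks, 18 were annotated as promoter (within 3 kb of a start), 15 as distal intergenic, 17 as intron, 7 as exon and 2 as UTR. An adjusted p was given in the authors' deposited table for 35 of them, and the other 24, all with a mean count of at most 13.9, had none. The 35 tested peaks came from 7 genes, since none of the 3 peaks of Mmp2 and the 2 of Mmp7 had an adjusted p. With an adjusted p under 0.05 there, 3 peaks were called higher and 5 lower in the resistant group, 8 of the 35 tested (22.9%). Over all 102173 tested peaks 12.4% passed, 5.02% higher and 7.34% lower. Of the 8 called peaks, 4 belong to a single gene, Mmp15, so the share of called peaks mainly reflects that locus. The median log2 fold change of the tested members was -0.35, and that of all tested peaks -0.07. Timp3 gave 11 of the 35 tested peaks and Mmp15 gave 7, all of them negative, so this median leans on these loci. The called peaks were at Mmp15 (4 lower), Mmp19 (2 higher), Mmp14 (1 higher) and Timp3 (1 lower). The typical precision of the tested members, a median SE of 0.35 on the log2 scale, was the same as that of all tested peaks.

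**Figure D1:**
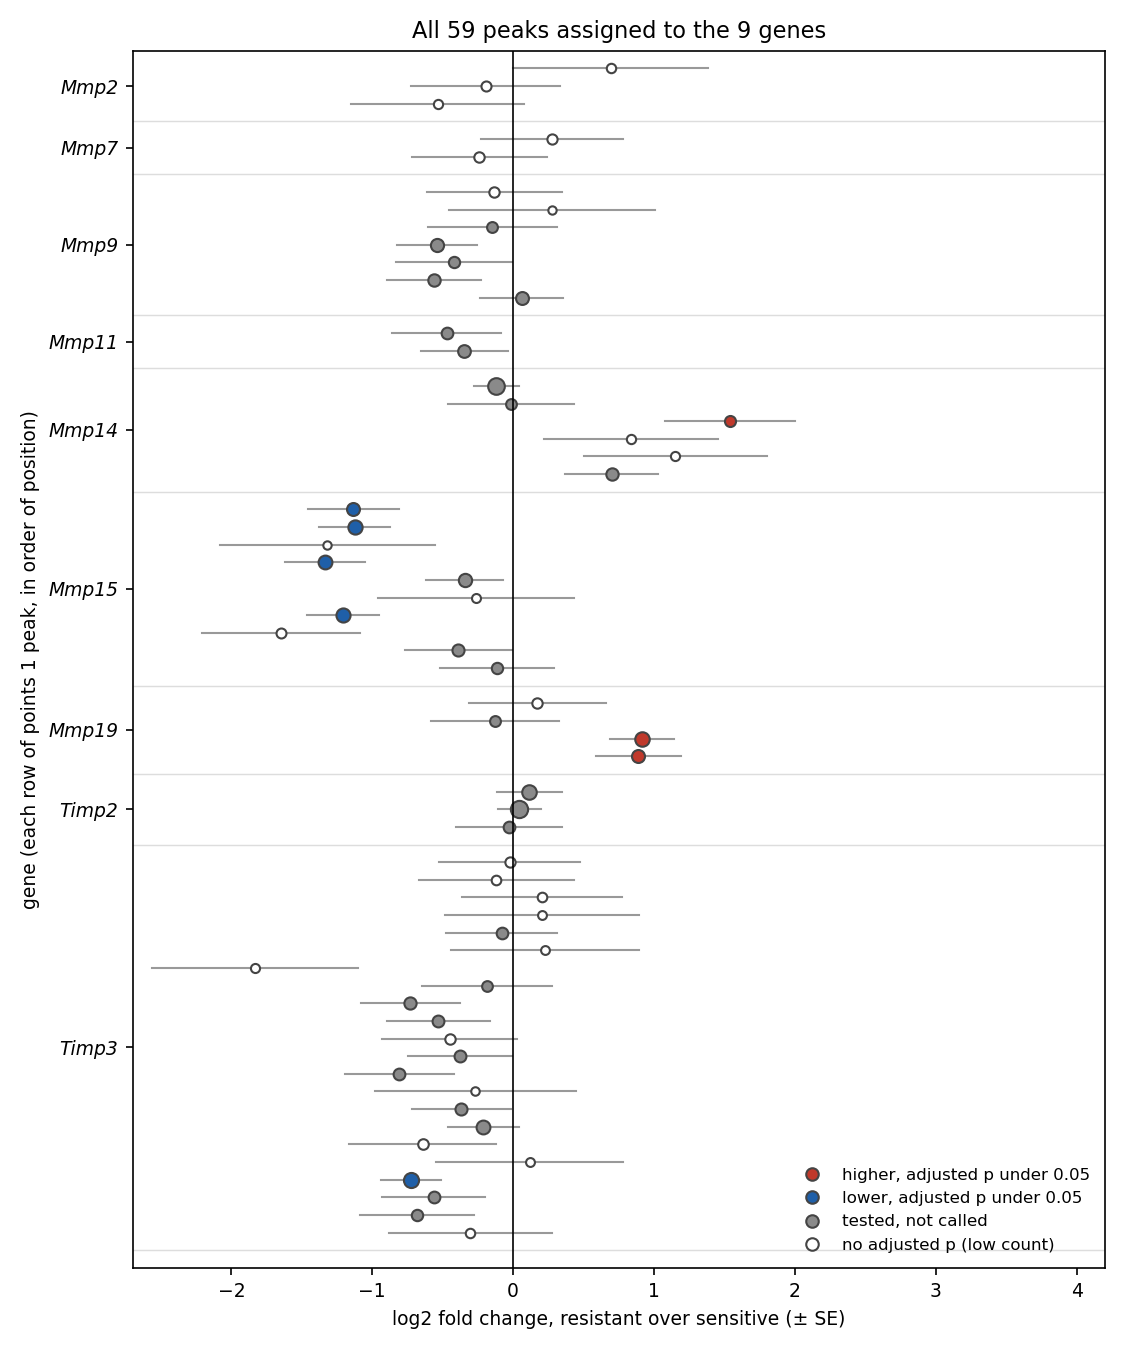
Log2 fold change (resistant over sensitive, x axis) of each of the 59 peaks, grouped by gene and ordered by position on the y axis. Bars are ± 1 SE as deposited, the point area grows with the mean count, and colour gives the call. The 3 higher peaks are at Mmp14 and Mmp19, and 4 of the 5 lower ones are at Mmp15.

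Mmp15 encodes a membrane-type metalloproteinase that is anchored by a transmembrane segment. Its 10 peaks were all at negative log2 fold changes in the authors' deposited table, and 4 of the 7 tested ones were called lower. The promoter peak at the start, chr8:95350840-95354440, had a mean count of 61.9 and a log2 fold change of -1.12 ± 0.25 (SE; 95% interval -1.62 to -0.63; DESeq2 adjusted p = 0.000226), which is 2.18-fold lower in the resistant group, in the authors' deposited table. The largest change among the called peaks of this gene was in the first intron, at chr8:95357730-95360810, with -1.34 ± 0.28 (SE; DESeq2 adjusted p = 9.07e-05) and a mean count of 52.2 in the authors' deposited table. Another lower peak lies just upstream, between Usb1 and Mmp15, at chr8:95348060-95350670 (-1.13 ± 0.32 (SE); DESeq2 adjusted p = 0.00666; mean count 36.5 in the authors' deposited table). The last of the 4, at chr8:95376040-95380030, is intergenic and begins 1747 bp beyond the 3-prime end of the RefSeq gene, with -1.21 ± 0.26 (SE; DESeq2 adjusted p = 9.26e-05) and a mean count of 59.2 in the authors' deposited table. Thus lower accessibility was found before, at, within and after the gene, over 31971 bp.

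The decrease was not the same at all Mmp15 peaks. A peak over exon 2, chr8:95362310-95365360, lies between the lower intron and downstream peaks, was at -0.34 ± 0.27 (SE; DESeq2 adjusted p = 0.491) and had a mean count of 42.1 in the authors' deposited table. The difference between the intron 1 and exon 2 peaks was -0.99 on the log2 scale (95% interval -1.76 to -0.22, with the deposited errors treated as independent). Since the intron 1 peak had the largest change among the called peaks of this gene, the interval is descriptive. The 2 tested peaks farthest downstream, 17.3 and 20.6 kb from their annotated start, were at -0.39 and -0.12 in the authors' deposited table and did not pass. The other 3 peaks had mean counts of 5.57 to 10.8, no adjusted p, and log2 fold changes of -1.65 to -0.27 there. Around Mmp15, 82 tested peaks of other genes within 500 kb of the promoter peak had a median of -0.28, with 8 called lower and 1 higher. After the median of its 5 Mb window (-0.29) was subtracted, the intron, start and downstream peaks remained called (-1.05, -0.84 and -0.92, adjusted p = 0.00696, 0.0198 and 0.0098), and the upstream one was at -0.85 and no longer was (adjusted p = 0.113; 0.180 with the 20 nearest peaks of other genes subtracted). With the window median and the dependence of fold change on peak strength (a lowess trend) both subtracted, the peak at the start was at -0.71 and not called either (adjusted p = 0.0765).

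Mmp14, the gene of the other membrane-type enzyme of the set and an activator of proMMP2, had the broadest and strongest promoter peak of the 7 metalloproteinase genes. This peak, chr14:54429250-54438660, spans 9411 bp, also overlaps Mrpl52, and had a mean count of 166.6, with a log2 fold change of -0.12 ± 0.16 (SE; 95% interval -0.43 to 0.19; DESeq2 adjusted p = 0.730) in the authors' deposited table. It was at 0.18 with the abundance trend subtracted, at -0.30 with the window median subtracted (adjusted p = 0.408) and at -0.44 with the 20 nearest peaks of other genes subtracted (adjusted p = 0.0843), and it did not pass under any alternative tried. The fold change of the Mmp15 promoter peak lay below it by a log2 difference with a 95% interval of -1.59 to -0.42 (errors treated as independent). Of this pair only the Mmp15 peak had been called in the same data, so the interval is descriptive and adds no separate test. The difference between the promoter peaks was -1.13 (-1.71 to -0.54) with the abundance trend subtracted. It was -0.54 (-1.12 to 0.04) with the window median, -0.32 (-0.90 to 0.26) with the 20 nearest peaks and -0.58 (-1.16 to 0.0025) with trend and window subtracted, so these 3 intervals include 0. Downstream of Mmp14 the values were positive. A small peak at chr14:54443070-54443830, annotated as the last exon of an Mmp14 transcript and starting 614 bp beyond the end of the RefSeq gene, was called higher at 1.54 ± 0.46 (SE; DESeq2 adjusted p = 0.0102), with a mean count of 16.7 in the authors' deposited table. The next 3 peaks downstream were at 0.84, 1.15 and 0.70, the first pair with no adjusted p and the last not past the threshold (DESeq2 adjusted p = 0.166) in the authors' deposited table. The called peak is close to the lowest mean count among tested members (14.7), and its call ended when the window median (0.18) was subtracted (1.36, adjusted p = 0.0505), with the 20 nearest peaks of other genes subtracted (adjusted p = 0.104) and with trend and window subtracted (adjusted p = 0.113).

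Mmp19 encodes a secreted metalloproteinase that cleaves basement membrane proteins. It was the only 1 of the 9 genes whose promoter peak was called higher. The promoter peak, chr10:128790180-128792600, had a mean count of 36.9 and was at 0.89 ± 0.30 (SE; 95% interval 0.30 to 1.48; DESeq2 adjusted p = 0.0302), or 1.85-fold higher with resistance, in the authors' deposited table. An intergenic peak 9530 bp before the start, chr10:128778340-128781380, was stronger, with a mean count of 68.9 and 0.91 ± 0.23 (SE; DESeq2 adjusted p = 0.00145) in the authors' deposited table. A pair of weaker peaks farther upstream, with mean counts of 12.6 and 15.4, were at 0.17 and -0.13 and were untested and not called in the authors' deposited table. Of 69 tested peaks of other genes within 500 kb, 7 were lower (10.1%, against 7.34% of all tested peaks) and 0 higher. Their median was -0.17, as was that of chromosome 10. With the window median subtracted the distal and promoter peaks were at 1.09 and 1.06 (adjusted p = 0.000182 and 0.0116). The promoter was not called with no filter on low counts (adjusted p = 0.0602). The fold change of the Mmp19 promoter peak exceeded that of Mmp15 by 2.01 on the log2 scale (95% interval 1.25 to 2.78, with the errors treated as independent). These promoter peaks had been called in opposite directions in the same data, so the interval is descriptive and adds no separate test.

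**Figure D2:**
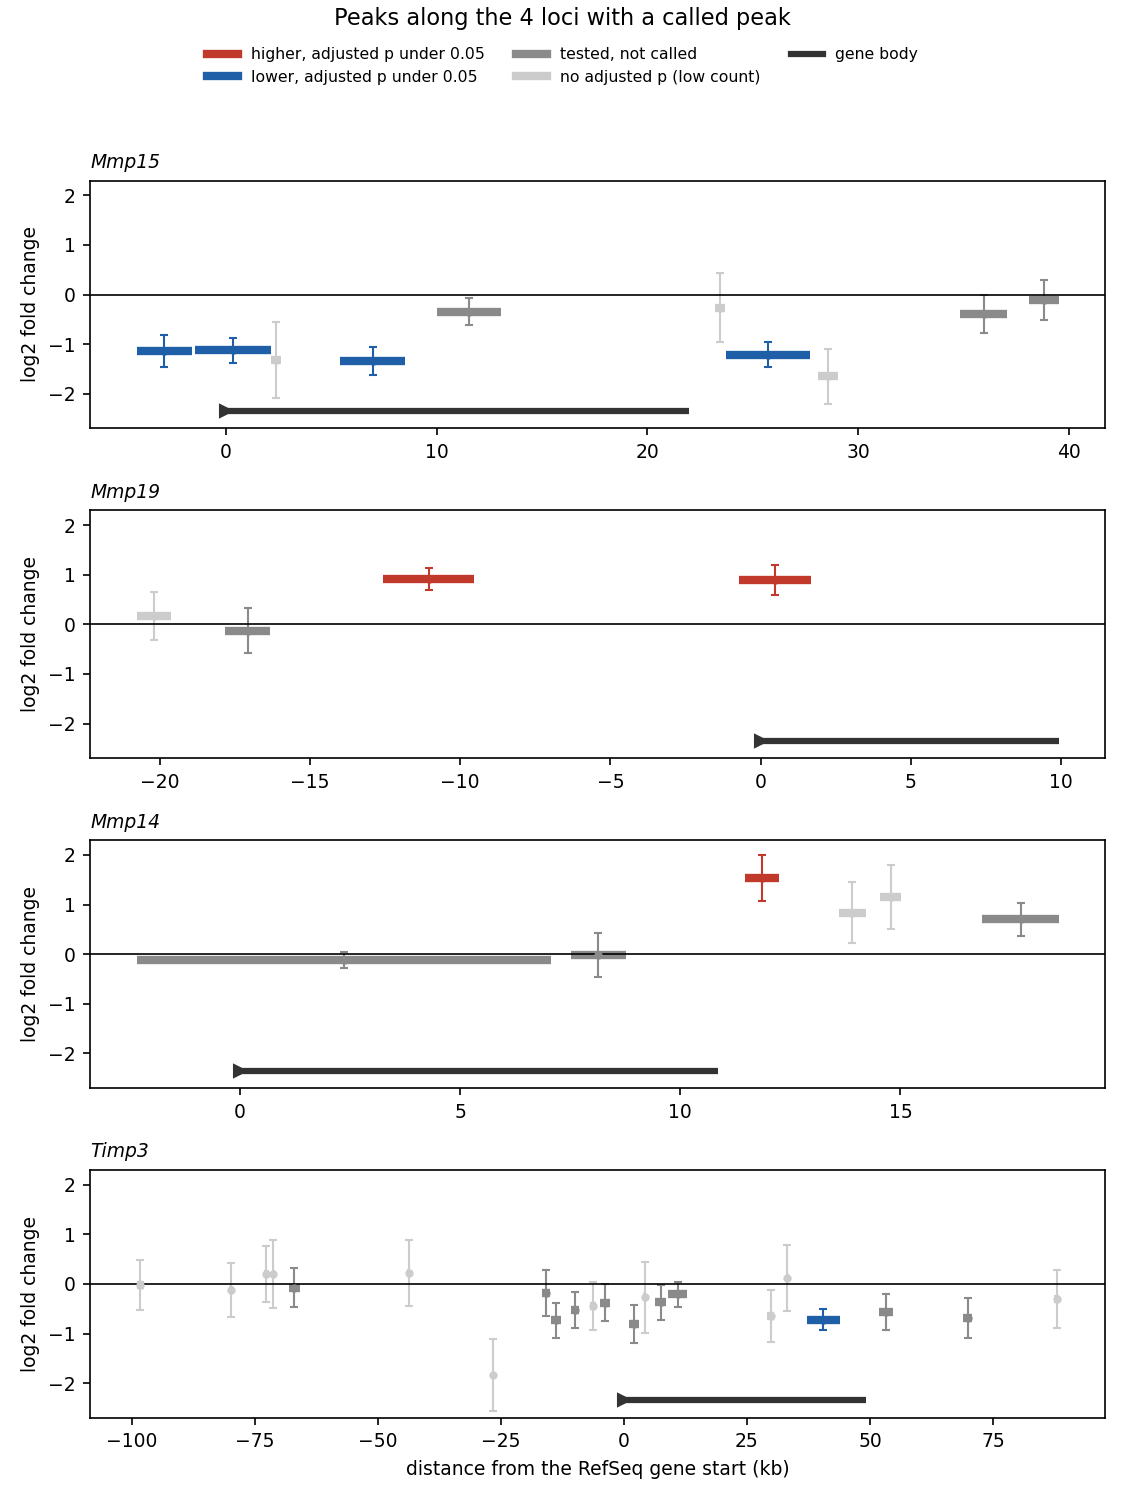
Peaks of Mmp15, Mmp19, Mmp14 and Timp3 drawn at their width along the distance from the RefSeq gene start (x axis, kb) and at their log2 fold change, resistant over sensitive (y axis), with bars of ± 1 SE and the gene body as a dark line. The lower Mmp15 peaks flank an exon 2 peak at -0.34, and the higher Mmp14 peak lies beyond the end of the gene.

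Of the secreted proteases, the gelatinase genes Mmp2 and Mmp9, the matrilysin gene Mmp7 and the stromelysin-3 gene Mmp11 had no called peak. Mmp2 had 3 peaks with mean counts of 8.01 to 11.2 and Mmp7 had 2 with 11.9 and 12.9, too low for an adjusted p in the authors' deposited table. The 95% interval of the Mmp2 peak within 3 kb of a start, at -0.53, was -1.74 to 0.67, and that of the Mmp7 one, at -0.24, was -1.18 to 0.70. A 2-fold decrease lies inside both, and inside that of another Mmp2 peak (-1.23 to 0.84). The remaining Mmp2 and Mmp7 peaks (-0.66 to 2.04 and -0.71 to 1.27) hold a 2-fold increase instead. So a 2-fold change in 1 direction was not excluded at any of these peaks. Mmp9 had 7 peaks, 5 of them tested, with log2 fold changes of -0.56 to 0.06 and adjusted p of 0.229 to 0.942 in the authors' deposited table. Its promoter peak before the RefSeq gene start, chr2:164938710-164939760, was at -0.42 ± 0.41 (SE; DESeq2 adjusted p = 0.605) in the authors' deposited table. Its other promoter peaks lie within the RefSeq gene, near starts annotated there. That at chr2:164945710-164948090 was at -0.56 ± 0.33 (SE; DESeq2 adjusted p = 0.312) in the authors' deposited table. The strongest promoter peak of Mmp9 was at 0.06 ± 0.30 (SE; DESeq2 adjusted p = 0.942) there. Mmp11 had 2 promoter peaks at -0.47 and -0.35 (DESeq2 adjusted p = 0.516 and 0.555), with 95% intervals of -1.23 to 0.29 and -0.95 to 0.26, in the authors' deposited table. The stronger of them also overlaps Chchd10, so its signal cannot be assigned to Mmp11 alone.

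Of the inhibitors, Timp2 had the strongest peak of the set and none of its 3 peaks was called. The peak over its start, chr11:118352730-118356620, had a mean count of 70.3 and was at 0.11 ± 0.23 (SE; 95% interval -0.34 to 0.56; DESeq2 adjusted p = 0.836) in the authors' deposited table. The broad peak upstream of it, chr11:118357550-118368090, spans 10541 bp, had a mean count of 212.9 and was at 0.04 ± 0.15 (SE; 95% interval -0.25 to 0.34; DESeq2 adjusted p = 0.912) there. For this peak a change of 2-fold in either direction lies outside the interval. It was at 0.50 and called higher (adjusted p = 0.0282) when both the abundance trend and the window median were subtracted, and was not called under any other alternative.

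Timp3, whose product is bound to the matrix and also inhibits ADAM sheddases, had the largest number of peaks, 22, of which 11 were tested. The gene lies inside Syn3, and all 22 peaks overlap the Syn3 gene body, 15 of them without touching Timp3, so their assignment rests on the nearest start. All 11 tested peaks had negative log2 fold changes, from -0.81 to -0.08, and 1 was called in the authors' deposited table. That peak, over exon 2 at chr10:86337610-86344310, was the strongest of the gene with a mean count of 87.6 and was at -0.72 ± 0.21 (SE; 95% interval -1.14 to -0.30; DESeq2 adjusted p = 0.00981), or 1.65-fold lower, in the authors' deposited table. The peak at the start of an annotated transcript, chr10:86301360-86303550, had a mean count of 22.5 and -0.81 ± 0.39 (SE; DESeq2 adjusted p = 0.173), and the promoter peak with the highest mean count, farther upstream, was at -0.38 ± 0.37 (SE; DESeq2 adjusted p = 0.604) in the authors' deposited table. The exon 2 peak lost its call with the window median (-0.22) subtracted (-0.50, adjusted p = 0.194), with the 20 nearest peaks of other genes subtracted (-0.52, adjusted p = 0.161) and with the abundance trend subtracted (-0.49, adjusted p = 0.130). The 32 tested peaks of other genes within 500 kb had a median of -0.25, with 2 lower and 0 higher. The 11 untested Timp3 peaks had mean counts of 5.90 to 13.9 and ranged from -1.83 to 0.22 in the authors' deposited table.

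Mean count per kb of peak separated the promoters only moderately. The strongest promoter peak of Timp2 had 20.2 normalized counts per kb (above 72.0% of the strongest promoter peaks of all genes), Mmp14 17.7 (58.7%), Mmp15 17.2 (55.7%), Mmp9 16.4 (50.8%), Mmp11 16.3 (50.6%) and Mmp19 15.2 (43.4%). Timp3, Mmp7 and Mmp2 were at 11.3, 11.0 and 10.8 (17.7%, 15.9% and 14.5%). Timp2, with the most accessible promoter by this measure, had tested peaks and none called. Mmp7 and Mmp2, with the least accessible ones, had no tested peak, so none of theirs could be called.

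**Figure D3:**
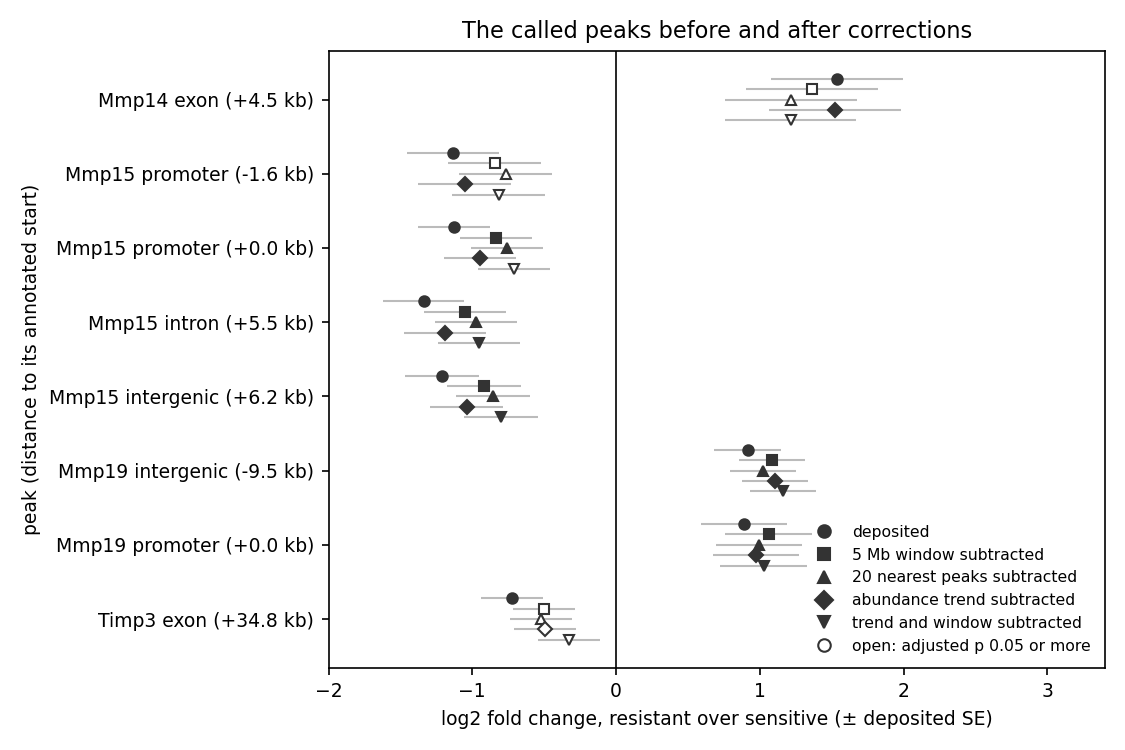
The 8 called peaks (y axis, with class and distance to the annotated start) with their log2 fold change, resistant over sensitive (x axis), as deposited and after 4 subtractions of regional shift or abundance trend. Bars are ± 1 deposited SE and open symbols have an adjusted p of 0.05 or more. The Mmp15 intron and downstream peaks and both Mmp19 peaks stay filled throughout, and the Timp3 peak is filled only as deposited.

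Other call rules changed the counts of members and of all peaks unequally. With the 5 Mb window median subtracted 2 members were higher and 3 lower (1.9% and 3.96% of all tested peaks), and with the 20 nearest peaks of other genes subtracted also 2 and 3 (1.88% and 3.82%). With the abundance trend subtracted 3 were higher and 4 lower (6.33% and 4.63%), and with trend and window subtracted 3 and 2 (2.21% and 2.87%). An adjusted p under 0.01 left 1 higher and 5 lower (2.93% and 4.66%), and a 2-fold limit 1 and 4 (3.65% and 3.45%). Above a mean-count limit of 50, which 9 tested members reach, 1 was higher and 4 lower (8.34% and 26.1%). With no filter on low counts, 2 were higher and 5 lower of all 59 (2.03% and 2.86%), and with peaks up to 5 kb 3 and 4 of 32 (4.49% and 5.0%). The 5 peaks that kept their call with the window median subtracted were 3 of Mmp15 and both of Mmp19.

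Few promoters of related proteases, inhibitors and activators were called. Over 5 lists of 63 such genes, 43 had a tested promoter, taking the strongest promoter peak of each. By this measure 0 passed as higher and 4 as lower (9.30%) by the DESeq2 adjusted p of the authors' deposited table. Of all 15490 promoters 3.58% were higher and 13.9% lower, so the share of lower ones was no larger than among promoters in general. At an unadjusted p under 0.05, 3 of the 43 were higher and 12 lower. These counts cannot be set beside the shares above, since the share of all promoters at this limit was not computed. The median of the 43 was -0.27 and that of all promoters -0.18. None of the 7 other metalloproteinase promoters passed, the closest being Mmp27 at -0.90 ± 0.33 (SE; DESeq2 adjusted p = 0.0523) in the authors' deposited table. None of the 4 other inhibitors did either. Tfpi2, the gene of a secreted Kunitz-type protease inhibitor, was at 1.06 ± 0.43 (SE; DESeq2 adjusted p = 0.0857) and Timp1 at 0.23 ± 0.29 (SE; DESeq2 adjusted p = 0.713) in the authors' deposited table.

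Of the 4 lower promoters of the lists, 3 were of activators and surface partners, the list with the most tested promoters (15 of 43). Plat, the tissue plasminogen activator gene, was at -0.46 ± 0.15 (SE; DESeq2 adjusted p = 0.0280) in the authors' deposited table. Bsg, whose product basigin is known to induce metalloproteinases in neighbouring cells, was at -0.46 ± 0.14 (SE; DESeq2 adjusted p = 0.0153) there. In all, 3 of 15 activators and partners were lower (20.0%, against 13.9% of all promoters). With the window median subtracted 0 of these 15 were called lower, and with the abundance trend subtracted 1 was. Among 7 ADAM sheddases Adam9 was lower (-0.64 ± 0.17 (SE); DESeq2 adjusted p = 0.00413; mean count 190.9 in the authors' deposited table), and none of 10 ADAMTS proteases passed. After the window medians were subtracted Plat, Bsg and Adam9 were at -0.20, -0.37 and -0.37 and none of them was called (adjusted p = 0.725, 0.111 and 0.277). Other genes of the lists, named after their values were seen, passed after this subtraction, with Adamts9 at -1.02 and Adam28 at -1.07 lower (adjusted p = 0.00377 and 0.04995). Adamts1 was then higher at 0.71 (adjusted p = 0.0445), having been at -0.60 and not called in the authors' deposited table. Plau, the urokinase gene, and Furin, which encodes a convertase that removes prodomains of membrane-type enzymes, were at 0.06 and -0.34 and did not pass in the authors' deposited table.

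Marker promoters of the cell types that such cultures could hold were also called, in the epithelial and fibroblast lists only. Of all promoters 3.58% were higher and 13.9% lower. Of 10 epithelial markers all 10 were lower, from -2.06 (Esrp1) to -0.86 (Grhl2), with mean counts of 87.2 to 785.2 in the authors' deposited table. Of 8 tested fibroblast markers 2 were higher, Pdgfrb at 1.64 ± 0.36 (SE; DESeq2 adjusted p = 0.000153) and Fap at 1.35 ± 0.36 (SE; DESeq2 adjusted p = 0.00307), and Pi16 was lower at -1.01 ± 0.25 (SE; DESeq2 adjusted p = 0.00138) in the authors' deposited table. The mean counts of the 8 tested fibroblast markers were 18.3 to 108.3, with Pdgfrb at 28.1 and Fap at 28.8. With the window median subtracted Pi16 was at -0.61 and not called (adjusted p = 0.170), while Pdgfrb, Fap and all 10 epithelial markers stayed called. With the 20 nearest peaks of other genes subtracted 9 epithelial markers were lower and 1 fibroblast marker higher (3.82% and 1.88% of all tested peaks). With trend and window subtracted these counts were 9 and 3 (2.87% and 2.21%). At a mean count of at least 50, 0 of 2 fibroblast markers were higher and 1 was lower (8.34% and 26.1%). None of 5 tested endothelial markers passed, nor did the 2 macrophage and the single lymphocyte marker promoters that could be tested, of 8 genes in each list. At an unadjusted p under 0.05, 1, 0 and 0 of them were lower, and the share of all promoters at this limit was not computed. The part of the marker differences in the values at Mmp15, Mmp19, Mmp14 and Timp3 was not tested.

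**Figure D4:**
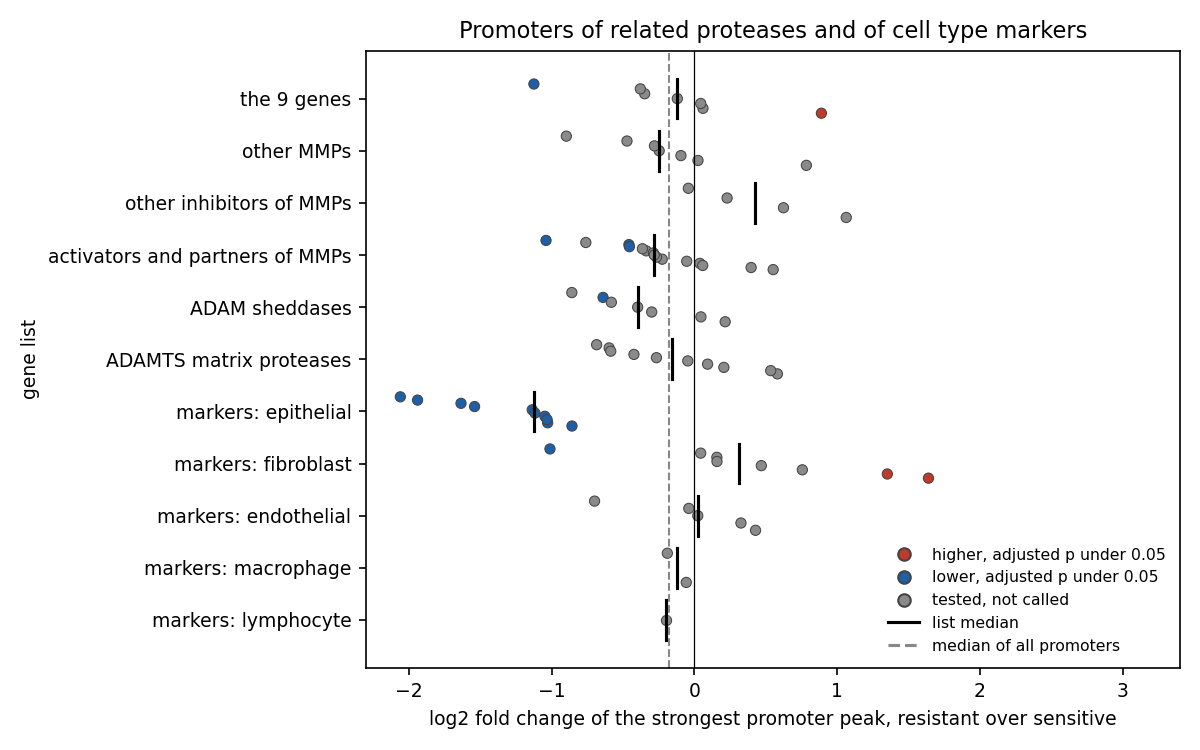
Log2 fold change, resistant over sensitive (x axis), of the strongest promoter peak of each gene in 11 groups (y axis): the members with a tested promoter, 5 lists of related genes and 5 lists of cell type markers. Each point is 1 gene, black bars are medians and the dashed line is the median of all promoters (-0.18). The protease lists hold 4 lower and 0 higher promoters, and all 10 epithelial markers are lower.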

How the data were processed

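ATAC-seq was done on 3 sensitive and 3 resistant organoid libraries, grouped by their titles. The submitters' processing notes name DESeq2 1.26.0, ChIPseeker 1.22.1, featureCounts, deepTools, Bowtie2 2.2.1, GATK 4.1.3 and SAMtools 1.8, and build mm10, without roles. For the peak caller, duplicates and Tn5 shift: not given in the sources used here. The authors deposited 1 table with, per peak, the log2 fold change, its SE (log2 scale), a signal (mean normalized count), the Wald statistic (a score), the p-value and the adjusted p-value, with width and distance to the start in bp. The 6 columns of values per library match no label and were not used, so depth per library is unknown here. Coordinates are as deposited; 2 starts are 0, so starts may be counted from 0.

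Called means a deposited adjusted p under 0.05. Promoters are peaks within 3 kb of a start, as deposited, the one with the highest mean count per gene. Intervals are 95% normal ones from the deposited SE. In alternatives, the median of the 5 Mb window (at least 20 tested peaks, else of the chromosome), the median over 20 neighbouring peaks assigned to other genes, or a lowess trend (fraction 0.3) on log2 mean count was subtracted, and a normal test with the deposited SE was adjusted over all tested peaks. The window and neighbour subtractions were tried on simulated data with a constant shift per chromosome, and the lowess trend on a simulated linear trend. Shifts within chromosomes were not simulated. Software was matplotlib 3.10.9, statsmodels 0.14.6, SciPy 1.17.1, NumPy 2.4.6, pandas 2.3.3 and Python 3.11.15.

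All 9 genes are named, with up to 3 called peaks of smallest p per gene in full (Mmp15 has 4, of which the fourth was added after its values were seen) and up to 3 called promoters per list and direction, except 1 gene that is counted but not reported here. Members, lists and rules were chosen with earlier results of these data known.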

Additional observations from a re-analysis of the deposited data

How the results depend on the processing

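The 3 higher member peaks became 1 at an adjusted p under 0.01, with a 2-fold limit and at a mean count of at least 50. The 5 lower ones became 3 with the 5 Mb window median or the 20 nearest peaks of other genes subtracted and 2 with trend and window subtracted. Higher promoters in the 5 protease lists went from 0 to 1 with the window, the nearest peaks or the trend subtracted and at a mean count of at least 50, and to 2 with trend and window subtracted. The 4 lower ones became 2 with the window or trend and window subtracted, at an adjusted p under 0.01 and with peaks up to 5 kb, and 1 with the trend subtracted or a 2-fold limit. At a mean count of at least 50 they were 6 of 22, where 26.1% of all peaks were lower and 8.34% higher. The shares of all promoters under these alternatives were not computed, and those of all peaks are given in the Results. The cause of these changes in count was not tested. No called peak changed sign, and the first-intron and downstream peaks of Mmp15 were called under all 9 alternatives that could be run for them. The difference between the Mmp15 and Mmp14 promoters under the subtractions was computed after seeing the data. No paired analysis was possible because the names of the columns per library match no label, so neither their group nor their sample is given. For the same reason leaving out replicates and an edgeR fit were not run. Peaks under a mean count of 14.7 limit what can be said of Mmp2 and Mmp7.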
